A study of Mus musculus with 12 samples.

Results

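The solute carrier (SLC) genes encode the membrane proteins that bring sugars, amino acids, ions, metals, vitamins and organic solutes across the plasma membrane and the membranes of mitochondria and other organelles. Members were the protein-coding genes whose symbol had the SLC form (Slc, a family number, a letter and a gene number) and whose CPM (counts scaled to the total of the library) reached 5 in at least 3 of the 12 lens libraries. Of 373 genes with such a symbol, 137 met the rule, and they came from 42 of 50 families. They were among 8984 genes that passed the same minimum in the whole series and were tested together. Members were thus chosen by their CPM in these same libraries, so their levels are given as a description. Of the 137, 2 carry the symbol without being transporters, *Slc9a3r2*, a scaffold protein that binds exchangers, and *Slc4a1ap*, an adaptor protein.

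RNA came from whole lenses of mice at P7 (an age of 7 days), with 3 libraries for each of 4 genotypes on the B6J background, namely wild-type (WT), *Trpm3*-KO (KO below), *Trpm3*-I/M (I/M) and *Trpm3*-M/M (M/M). *Trpm3* encodes a cation channel that admits calcium. Mice of the I/M genotype were heterozygous, and those of the M/M genotype homozygous, for a CRISPR/Cas9-made isoleucine-to-methionine substitution, and the KO allele, made by homologous recombination, carries an IRES-LacZ-neo cassette that still allows interrupted transcripts. Lenses were pooled, and the series gives 4 from males and 4 from females for a library.

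The mature lens has no blood supply of its own. Its cells take glucose, amino acids, antioxidant precursors and ions from the aqueous and vitreous humors, and a surface epithelium feeds and drains the fiber cells beneath it. Cell volume, calcium and pH in the fibers are held by exchangers and cotransporters, and organic osmolytes such as taurine and *myo*-inositol help to balance water. Failure of this transport is a known route to cataract.

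The libraries held between 56162182 and 82090262 estimated counts on genes. *Trpm3* itself lay between 250.6 and 285 CPM in WT, between 89.9 and 99.7 CPM in KO, between 370 and 413 CPM in I/M and between 469 and 484 CPM in M/M. I/M replicate 3 stood apart in its sex-linked RNA, with *Xist*, which marks female cells, at 0.0721 CPM against at least 45.8 CPM in the other 11 libraries, so that its pool of both sexes is in doubt. Without that library, the numbers of SLC genes called in comparisons with WT were the same. All 9 lens epithelium markers, 12 lens fiber markers and 16 crystallins passed the minimum and were tested. By FDR, 11 of the 12 lens fiber markers were lower in M/M, with a median log2 FC of -0.81, and their summed level was 208400 to 228800 CPM in WT and 139000 to 146700 CPM in M/M. The lens epithelium markers summed to 1049 to 1088 CPM in WT and 892 to 914 CPM in M/M, but went both ways. By FDR, 3 of the 9 were higher and 4 lower in M/M, with log2 FC from -2.24 to 0.72 and a median of -0.05. The summed level of 10 vascular endothelium markers was 13.9 to 16.4 CPM in WT, 13.9 to 15 CPM in KO, 25.5 to 32 CPM in I/M and 60 to 69.4 CPM in M/M. The 9 pericyte and fibroblast markers summed to 155 to 164 CPM in WT and 301 to 433 CPM in M/M, and 10 macrophage markers to 0.436 to 0.649 CPM and 9.54 to 20.4 CPM. Markers of neighbouring eye tissues were low and none was tested, but their summed levels did not overlap between WT and M/M, at 0.236 to 0.456 and 3.68 to 6.73 CPM for cornea, 0.590 to 0.840 and 3.94 to 4.25 CPM for ciliary epithelium, 0.903 to 1.16 and 2.32 to 5.58 CPM for neural retina, and 6.09 to 6.65 and 3.15 to 3.62 CPM for pigment cells. The summed level of the crystallins went from 678900 to 771900 CPM in WT to 387400 to 419500 CPM in M/M. The part of these shifts in the results on SLC genes was not tested, and in whole lenses fewer cells of a type and less RNA per cell cannot be told apart.

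The minimum of 5 CPM was met in all 12 libraries by 99 members. Another 12 members met it in one genotype alone: *Slc12a7*, *Slc14a1*, *Slc17a5*, *Slc19a2*, *Slc29a1*, *Slc31a2*, *Slc38a7*, *Slc40a1*, *Slc44a2*, *Slc6a8* and *Slc9a3r2* in M/M, and *Slc26a11* in KO. These members entered through the group in which they were high. Just inside the limit stood *Slc29a1*, *Slc35d1*, *Slc31a2* and *Slc46a1*, whose CPM in the library that ranked 3 was 5.09, 5.16, 5.19 and 5.22 CPM, and just outside stood *Slc7a6os*, *Slc38a5*, *Slc22a2* and *Slc52a2* at 4.84, 4.72, 4.60 and 4.49 CPM. The remaining 236 SLC-named genes included 17 with no count in any library. The members took 0.363 to 0.408% of all counts in WT and 0.549 to 0.557% in M/M.

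Per kilobase of merged exon, the most abundant SLC RNA of the WT lens was that of *Slc7a5*, the light chain of the large neutral amino acid exchanger, at 139 ± 9.29 CPM per kb (SD, n = 3). *Slc3a2*, the heavy chain that carries *Slc7a5* and several related light chains to the plasma membrane, ranked 4 at 66.6 ± 2.07 CPM per kb. Between them lay *Slc25a4*, the mitochondrial ADP/ATP carrier, at 105 ± 5.58 and *Slc2a1*, the basal glucose transporter, at 75.1 ± 5.82 CPM per kb. Ranks 5 to 7 were not separated by their spread, with *Slc7a8*, another neutral amino acid light chain, at 37.7 ± 1.13, *Slc25a5*, a second ADP/ATP carrier, at 37.1 ± 0.448 and *Slc25a39*, a mitochondrial carrier needed for glutathione import, at 36.8 ± 2.43 CPM per kb. *Slc24a4*, a potassium-dependent sodium/calcium exchanger, *Slc20a2*, a sodium-phosphate cotransporter, and *Slc7a2*, a cationic amino acid transporter, followed at 32.8 ± 1.13, 31.3 ± 1.94 and 27.1 ± 0.645 CPM per kb. The median member was at 2.12 CPM per kb, far below these 10 genes.

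**Figure D1:**
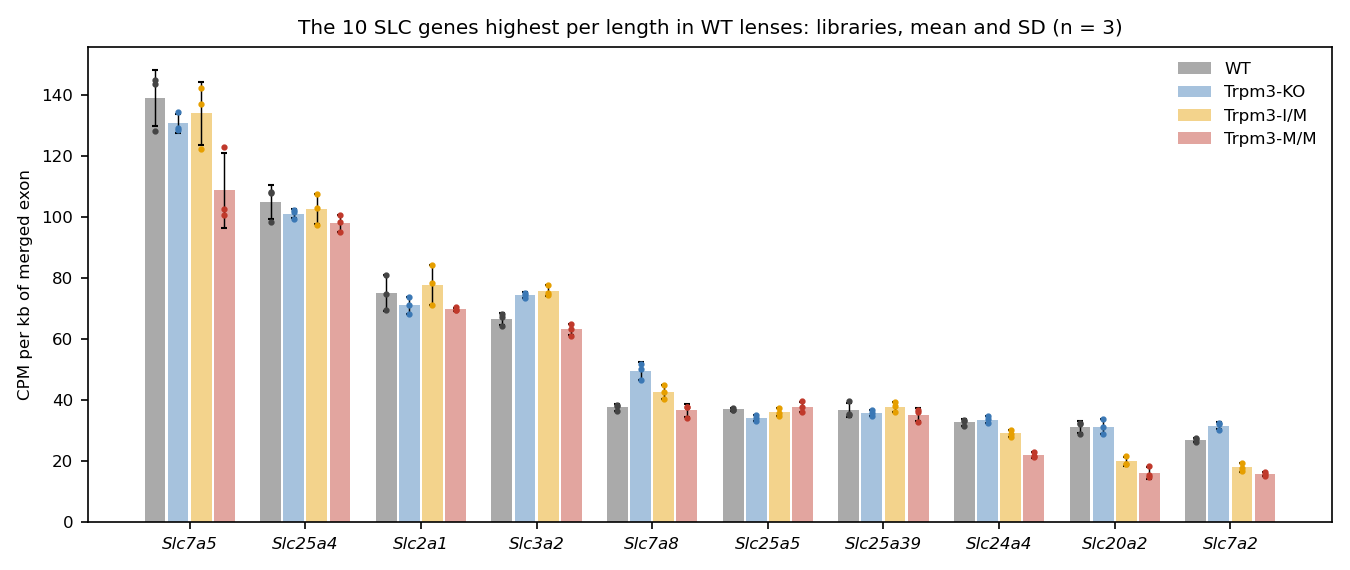
Levels in CPM per kb of merged exon (linear axis from 0) of the 10 SLC genes highest in WT, in each of the 4 genotypes; bars are means, whiskers the SD (n = 3) and points single libraries. *Slc24a4*, *Slc20a2* and *Slc7a2* are lower in every M/M library than in every WT library, whereas *Slc25a4* and *Slc2a1* overlap.

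Each genotype was compared with WT to ask how the lens transport genes stood under the substitution and under loss of *Trpm3*. A gene was called at a fold change (FC) of at least 2 and a false discovery rate (FDR) of at most 0.05, where FDR is the Benjamini-Hochberg adjusted p of edgeR's quasi-likelihood test over all 8984 genes. In M/M, 10 members were higher, where 6.42% of all tested genes were, and 5 were lower, where 2.53% were. As shares of the 137 these are 7.30% and 3.65%, near the background in both directions. By FDR alone, 54 members were higher and 30 lower, against backgrounds of 31.4% in each direction, or 39.4% and 21.9% of the members. The median log2 FC was 0.09 over the members and -0.00 over all tested genes. Scaling by library size alone, without the TMM factors used here, moved the median of all genes to 0.50 and the split from 10 higher and 5 lower (66.7% higher) to 26 and 3 (89.7% higher), so changes are given relative to the other genes of the lens. Of the falls in M/M, the calls for *Slc15a2* and *Slc4a4* were lost under that scaling, at log2 FC of -0.63 and -0.58.

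**Figure D2:**
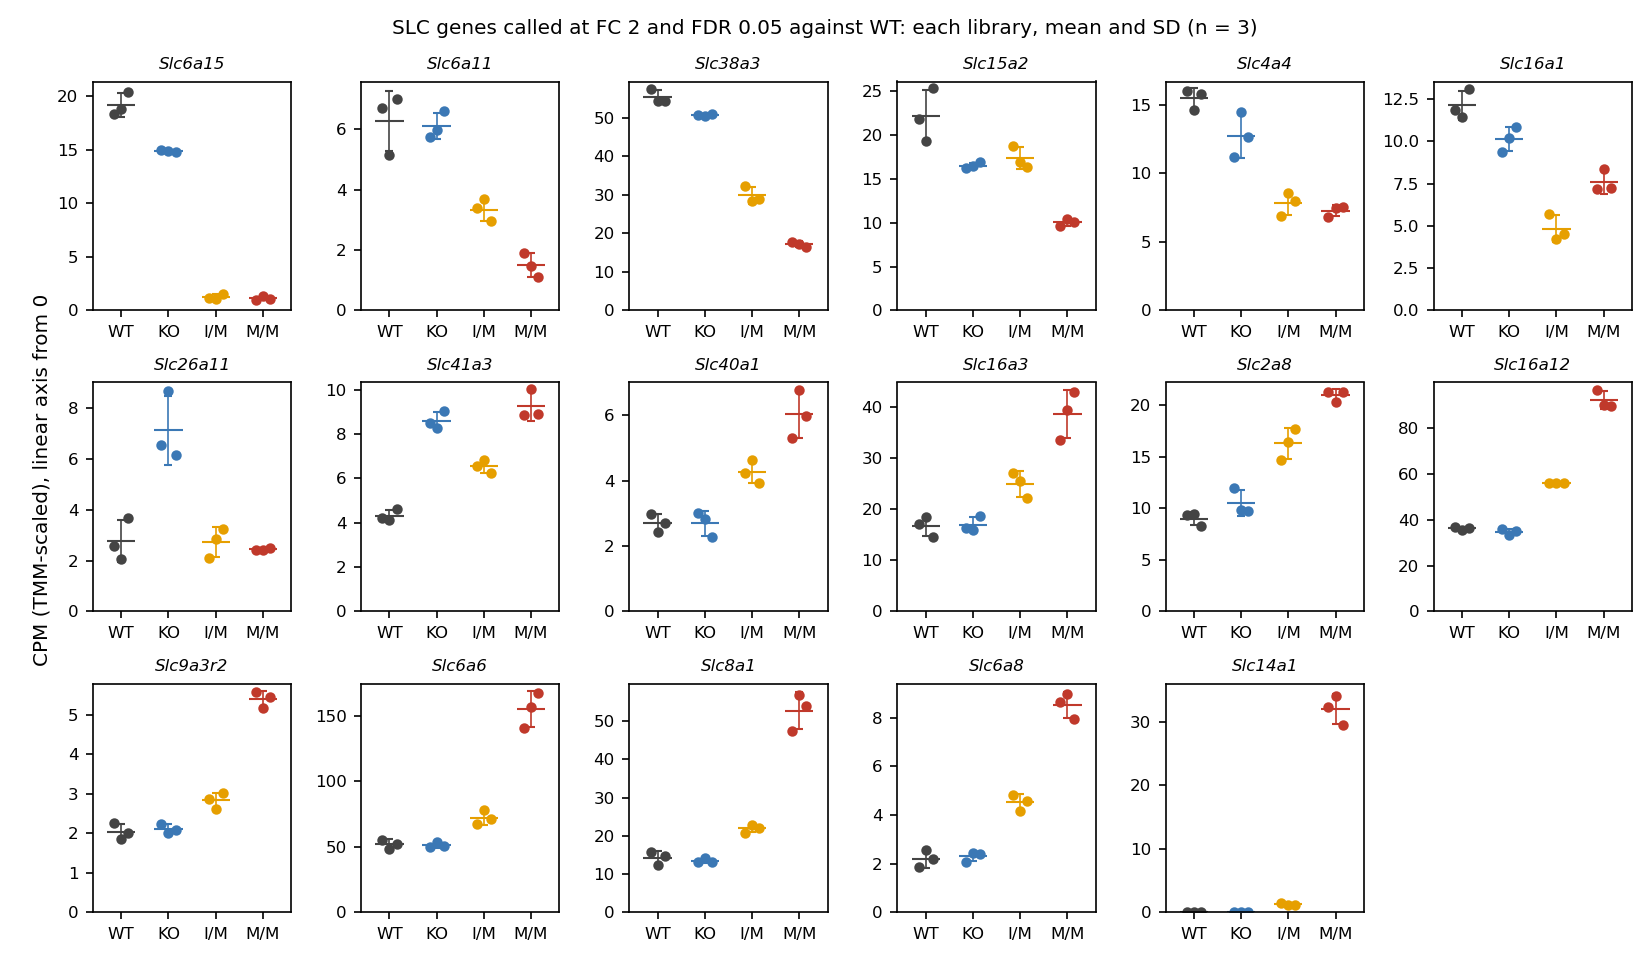
CPM (linear axis from 0, each panel on its own scale) of the 17 SLC genes called against WT in any genotype; points are libraries, horizontal bars means and whiskers the SD (n = 3). *Slc6a15* drops to near 1 CPM in both I/M and M/M, *Slc14a1* is seen almost only in M/M, and *Slc26a11* is high in KO alone.

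Amino acid and peptide transporters gave 4 of the 5 falls in M/M, or 16.7% of the 24 in the class, against 2.53% of all genes. They gave none of the rises, where 6.42% of all genes rose. These counts depend on the scaling. Under library size alone, *Slc7a11*, *Slc17a5* and *Slc38a4* of this class were among the genes called higher, and the call for *Slc15a2* was lost. The counts also depend on the classes. The GABA transporter *Slc6a11* was counted here, and the taurine transporter *Slc6a6*, which rose, among vitamins and organic solutes. *Slc6a15* (ENSMUSG00000019894, chr10:103367783-103419377, plus strand, GRCm38), a sodium-coupled carrier of branched-chain amino acids and proline, was at 18.3, 18.8 and 20.4 CPM in the WT libraries, 15, 14.9 and 14.8 CPM in KO, 1.19, 1.05 and 1.56 CPM in I/M and 0.988, 1.37 and 1.06 CPM in M/M. Both mutant groups lay far below WT without overlap, and they overlapped each other. The log2 FC was -4.06 ± 0.12 (SE; FDR = 1.32e-11) in M/M and -3.93 ± 0.12 (FDR = 1.08e-10) in I/M, and the mutants differed by -0.13 ± 0.15 (FDR = 0.488).

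*Slc38a3* (ENSMUSG00000010064, chr9:107650634-107669530, minus strand), a sodium-coupled glutamine and histidine transporter, showed graded values instead. It was at 57.4, 54.4 and 54.4 CPM in WT, 50.7, 50.5 and 51 CPM in KO, 32.4, 28.4 and 28.8 CPM in I/M and 17.8, 17.3 and 16.4 CPM in M/M. WT, I/M and M/M formed separate levels. The log2 FC against WT was -1.69 ± 0.06 (FDR = 3.76e-11) in M/M and -0.89 ± 0.05 (FDR = 6.66e-08) in I/M, and M/M lay below I/M by -0.80 ± 0.06 (FDR = 1.17e-07).

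*Slc6a11*, a GABA transporter, was at 6.70, 5.15 and 7.0 CPM in WT, 3.38, 3.68 and 2.96 CPM in I/M and 1.90, 1.46 and 1.12 CPM in M/M, again as 3 separate levels, with a log2 FC of -2.08 ± 0.17 (FDR = 2.16e-07) in M/M. *Slc15a2*, which takes up di- and tripeptides with protons, fell from 22.1 ± 3.02 CPM in WT to 10.1 ± 0.421 CPM in M/M (log2 FC -1.14 ± 0.08, FDR = 7.93e-08). It was also lower in KO, at 16.5 ± 0.338 CPM (log2 FC -0.42 ± 0.08, FDR = 0.0095), a difference of less than 2-fold. Of the 24 amino acid and peptide genes, 9 were higher and 7 lower by FDR alone in M/M (37.5% and 29.2%), against 31.4% of all genes in each direction.

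Among those below 2-fold, the abundant *Slc7a2* was at 247 ± 5.89 CPM in WT, 289 ± 10.6 CPM in KO, 165 ± 12.8 CPM in I/M and 145 ± 5.95 CPM in M/M (log2 FC -0.77 ± 0.06 in M/M, FDR = 7.11e-08). *Slc7a5* had a log2 FC of -0.35 ± 0.08 (FDR = 0.00164), which turned to 0.15 under library size alone, and its partner *Slc3a2*, at 235 ± 7.31 and 223 ± 6.86 CPM, had a log2 FC of -0.08 (FDR = 0.124). *Slc7a11*, the cystine/glutamate exchanger that supplies cysteine for glutathione, rose from 37.7 ± 4.08 to 61.4 ± 3.78 CPM (log2 FC 0.70 ± 0.10, FDR = 2.5e-05). *Slc38a4*, a neutral amino acid carrier named after its values were seen, rose from 38.1 ± 3.85 to 69.4 ± 1.66 CPM (0.86 ± 0.08, FDR = 8.1e-07).

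A list of 10 SLC genes known as targets of ATF4, the transcription factor of the amino acid starvation response, held 7 members. In M/M none was called, 2 were higher by FDR (*Slc7a11* and *Slc7a1*) and 1 was lower (*Slc7a5*), where 31.4% of all genes were in each direction. The median log2 FC of the 7 was -0.08. *Slc38a2*, which starvation and hypertonicity both induce in many cells, was at 137 ± 17.7 CPM in WT and 141 ± 3.02 CPM in M/M (log2 FC 0.04 ± 0.07, FDR = 0.672).

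Carriers of vitamins and small organic solutes gave 4 of the 10 rises in M/M, in a class of 18 (22.2%, against 6.42% of all genes). This share depends on the classes, since *Slc16a12*, *Slc6a6* and *Slc6a8* were placed here by cargo, apart from other genes of their families. Of the 4 rises, *Slc14a1* and *Slc6a8* had become members only through their M/M libraries. So had *Slc40a1* and *Slc9a3r2* among the other rises, and the count is thus partly fixed by the membership rule. The largest was that of *Slc14a1* (ENSMUSG00000059336), a facilitative urea channel. It had 2, 1 and 1 counts in the WT libraries, 0 in each KO library, 109, 99 and 79 in I/M and 2589, 3147 and 2615 in M/M. Its mean was 1.27 ± 0.175 CPM in I/M and 32 ± 2.33 CPM in M/M. The ratio of pooled, scaled counts to WT was 1192 (95% exact binomial interval 465 to 4376) in M/M and 47.3 (18.3 to 175) in I/M, intervals that cover counting error only. The FDR was 7.02e-12 and 2.14e-07. Against KO, M/M was at least 576-fold higher, taking 3 counts per library as the floor.

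Both carriers of creatine rose in M/M. *Slc6a8*, the sodium- and chloride-coupled creatine transporter, was at 1.85, 2.58 and 2.18 CPM in WT, 2.09, 2.42 and 2.39 CPM in KO, 4.84, 4.16 and 4.57 CPM in I/M and 8.64, 8.99 and 7.97 CPM in M/M. The 3 levels of WT, I/M and M/M did not overlap, and the log2 FC was 1.95 ± 0.11 (FDR = 8.46e-09) in M/M and 1.04 ± 0.12 (FDR = 1.91e-05) in I/M. The I/M call lay close to the threshold, and it was lost without WT replicate 1 (log2 FC 0.92) or without I/M replicate 1 (0.99). *Slc16a12* (ENSMUSG00000009378, chr19:34668403-34747289, minus strand), a creatine carrier of the monocarboxylate transporter family whose human counterpart has been linked to juvenile cataract, was at 36.8, 35.3 and 36.5 CPM in WT, 35.7, 33.3 and 35.3 CPM in KO, 55.8, 56 and 56 CPM in I/M and 96.6, 89.8 and 89.7 CPM in M/M. The step from WT to I/M was 0.63 ± 0.04 (FDR = 2.68e-07) and that to M/M 1.35 ± 0.05 (FDR = 4.35e-11) on the log2 scale.

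*Slc6a6* (ENSMUSG00000030096, chr6:91684053-91759066, plus strand), the taurine transporter, was at 55.4, 48.2 and 52.3 CPM in WT, 49.8, 53.9 and 50.8 CPM in KO, 67.7, 78 and 71.1 CPM in I/M and 140, 156 and 168 CPM in M/M. WT and KO overlapped, I/M lay above both, and all M/M libraries lay above all others. The log2 FC was 1.57 ± 0.08 (FDR = 1.17e-09) in M/M, 0.47 ± 0.07 (FDR = 0.000306) in I/M and 1.10 ± 0.07 (FDR = 9.55e-08) between the mutants. Of 4 SLC genes on a list of those induced by hypertonicity, 3 were tested. *Slc6a6* was the one called in M/M, where 6.42% of all genes were called higher. On the same list, *Slc5a3*, the *myo*-inositol transporter, was at 6.0 ± 0.637 CPM in WT and 7.30 ± 0.471 CPM in M/M (log2 FC 0.28 ± 0.13, FDR = 0.0747). *Slc6a12*, the betaine transporter, had its highest library under 1 CPM and was not a member.

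Of the exchangers for calcium, *Slc8a1* (ENSMUSG00000054640, chr17:81373105-81738377, minus strand), the plasma membrane sodium/calcium exchanger, rose and *Slc24a4* fell in M/M. *Slc8a1* was at 15.7, 12.3 and 14.7 CPM in WT, 13.2, 14.3 and 13.1 CPM in KO, 20.8, 22.9 and 22.1 CPM in I/M and 47.3, 56.8 and 53.9 CPM in M/M. All M/M libraries stood above all others, with a log2 FC of 1.88 ± 0.09 (FDR = 7.53e-10) against WT and 1.26 ± 0.08 (FDR = 6.48e-08) against I/M. *Slc24a4* went from 148 ± 5.13 CPM in WT to 132 ± 5.39 CPM in I/M and 100 ± 4.22 CPM in M/M (log2 FC -0.56 ± 0.05, FDR = 3.71e-07), and the log2 FC was -0.06 under library size alone. It did not reach the 2-fold threshold. All 4 calcium exchangers passed FDR 0.05 in M/M, 3 of them higher, where 31.4% of all genes were higher and 31.4% lower.

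In the class for acid, base and chloride, 8 of 14 members were higher and 2 lower by FDR in M/M (57.1% and 14.3%, against 31.4% of all genes in each direction), with a median log2 FC of 0.35. *Slc4a4*, the electrogenic sodium bicarbonate cotransporter, was the one called. It was at 16, 14.6 and 15.8 CPM in WT, 11.2, 14.4 and 12.6 CPM in KO, 6.90, 8.56 and 7.96 CPM in I/M and 6.83, 7.48 and 7.52 CPM in M/M. The mutants overlapped and both lay below WT, at a log2 FC of -0.98 ± 0.10 (FDR = 4.42e-06) in I/M and -1.09 ± 0.10 (FDR = 4.07e-07) in M/M. In I/M the gene passed the threshold without WT replicate 2 (-1.03) or without I/M replicate 2 (-1.06). *Slc12a2*, the sodium-potassium-chloride cotransporter, rose from 22.5 ± 0.447 to 31 ± 0.416 CPM in M/M (log2 FC 0.46 ± 0.04, FDR = 2.4e-07).

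Among glucose and lactate carriers, *Slc2a8* and *Slc16a3* rose and *Slc16a1* fell by FDR. The fall of *Slc16a1* in M/M was lost under library size alone, at a log2 FC of -0.17 (adjusted p = 0.182, edgeR). *Slc2a1* was at 284, 262 and 244 CPM in WT and 244, 247 and 243 CPM in M/M, with a log2 FC of -0.11 ± 0.07 (FDR = 0.177). *Slc2a8*, an intracellular hexose transporter, rose from 8.99 ± 0.643 CPM in WT to 16.3 ± 1.52 CPM in I/M and 21.0 ± 0.558 CPM in M/M (log2 FC 1.22 ± 0.09, FDR = 5.35e-08). *Slc16a3*, the lactate exporter of glycolytic cells, was at 17.1, 18.4 and 14.5 CPM in WT, 16.3, 16 and 18.6 CPM in KO, 27.1, 25.4 and 22.2 CPM in I/M and 33.6, 39.4 and 42.9 CPM in M/M. Those 3 levels did not overlap, and the log2 FC in M/M was 1.22 ± 0.11 (FDR = 4.25e-07). Its counts were partly fractional, so that reads shared with other genes could enter them.

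*Slc16a1* (ENSMUSG00000032902), which carries lactate and pyruvate in either direction, was at 11.9, 11.5 and 13.1 CPM in WT, 9.38, 10.2 and 10.8 CPM in KO, 5.73, 4.24 and 4.53 CPM in I/M and 7.15, 8.37 and 7.21 CPM in M/M. The lowest values were those of the heterozygous group, which did not overlap the homozygous one. The log2 FC against WT was -1.33 ± 0.11 (FDR = 9.44e-07) in I/M and -0.68 ± 0.10 (FDR = 7.48e-05) in M/M, and M/M was above I/M by 0.65 ± 0.11 (FDR = 0.000246). *Bsg*, the chaperone that brings both lactate carriers to the surface, was at 224 ± 11.4 CPM in WT, 290 ± 17.5 CPM in I/M and 284 ± 16.1 CPM in M/M. Of 3 SLC genes induced by hypoxia, 2 were tested and *Slc16a3* alone was called, in M/M, where 6.42% of all genes were called higher.

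The promoter windows of 3 genes of the SLC16 family and of *Slc8a1* are shown with the hypoxia response core ACGTG, searched on both strands, in capitals. Each runs 5′ to 3′ on the gene's strand over 300 bases, from 250 before the RefSeq start to 50 after it (GRCm38.p6), at chr3:104638414-104638713 (plus strand), chr11:120948817-120949116 (plus), chr19:34747279-34747578 (minus) and chr17:81738338-81738637 (minus) in the order given. RefSeq promoter entries were matched for 108 of the 137 members.
Slc16a1: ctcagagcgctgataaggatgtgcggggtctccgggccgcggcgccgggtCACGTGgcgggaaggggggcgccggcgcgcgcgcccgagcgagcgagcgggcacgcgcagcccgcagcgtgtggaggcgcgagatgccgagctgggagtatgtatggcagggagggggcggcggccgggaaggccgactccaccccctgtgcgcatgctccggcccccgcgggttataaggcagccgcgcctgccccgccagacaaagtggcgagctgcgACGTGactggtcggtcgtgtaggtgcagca
Slc16a3: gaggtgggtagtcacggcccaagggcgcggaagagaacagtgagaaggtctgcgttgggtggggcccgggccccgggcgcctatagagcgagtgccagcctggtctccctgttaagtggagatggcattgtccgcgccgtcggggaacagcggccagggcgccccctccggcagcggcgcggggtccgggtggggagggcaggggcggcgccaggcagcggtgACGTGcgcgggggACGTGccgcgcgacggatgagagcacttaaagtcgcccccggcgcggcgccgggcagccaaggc
Slc16a12: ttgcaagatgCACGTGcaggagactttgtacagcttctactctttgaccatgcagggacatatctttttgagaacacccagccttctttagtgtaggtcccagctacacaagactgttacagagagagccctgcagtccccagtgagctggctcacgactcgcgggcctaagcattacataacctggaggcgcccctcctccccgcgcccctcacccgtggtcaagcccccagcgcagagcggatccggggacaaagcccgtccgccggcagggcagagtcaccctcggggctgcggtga
Slc8a1: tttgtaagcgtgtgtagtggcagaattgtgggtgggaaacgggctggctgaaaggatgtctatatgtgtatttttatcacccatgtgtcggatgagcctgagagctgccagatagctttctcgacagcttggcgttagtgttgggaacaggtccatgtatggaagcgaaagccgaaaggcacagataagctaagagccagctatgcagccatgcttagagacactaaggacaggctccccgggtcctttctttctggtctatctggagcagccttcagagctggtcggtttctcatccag
Counted from 1 at the 5′ end, *Slc16a1* held the core at 51 and 52, overlapping on opposite strands within the palindrome CACGTG, and at 271. *Slc16a3* held it at 224 and 237, *Slc16a12* at 11 and 12, again as CACGTG, and *Slc8a1* held none. The core was present in 19.6% of all 32851 promoter windows. Among the other called genes with a promoter entry, it was also in the windows of *Slc15a2* and *Slc41a3* and in some of *Slc29a1*. It was not in those of *Slc2a8*, *Slc46a3*, *Slc4a4*, *Slc6a11*, *Slc9a3r2* and *Slc9a8*. The AP-1 site TGANTCA (7.81% of windows), the cyclic AMP element TGACGTCA (1.79%) and the tonicity element core TGGAAA (21.4%) were searched on both strands and were not in the 4 windows shown.

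Metal carriers gave 2 rises among 22 members in M/M (9.09%, against 6.42% of all genes) and no fall, where 2.53% of all genes fell. Of the rises, *Slc40a1* had become a member only through its M/M libraries. *Slc41a3* was under the minimum of 5 CPM in WT and had become a member only through the altered genotypes. The count of rises is thus partly fixed by the membership rule. *Slc40a1*, the iron exporter ferroportin, was at 2.97, 2.44 and 2.72 CPM in WT, 4.23, 4.62 and 3.94 CPM in I/M and 5.31, 6.78 and 5.99 CPM in M/M, with no overlap between these groups (log2 FC 1.15 ± 0.13 in M/M, FDR = 3.53e-06). *Slc40a1* is known to be high in macrophages, whose summed markers were also higher (0.436 to 0.649 CPM in WT, 9.54 to 20.4 CPM in M/M), and the part of these in its rise was not tested. *Slc41a3*, a magnesium transporter, was at 4.21, 4.14 and 4.60 CPM in WT, 8.49, 8.28 and 9.05 CPM in KO, 6.57, 6.85 and 6.23 CPM in I/M and 8.85, 10 and 8.93 CPM in M/M. All 3 altered genotypes lay above WT. Its log2 FC was 1.10 ± 0.08 (FDR = 4.13e-08) in M/M, 0.60 ± 0.08 (FDR = 5.95e-05) in I/M and 0.995 ± 0.08 (FDR = 3.46e-06) in KO, the last a fold of 1.99 and so just short of a call. Without WT replicate 3, KO replicate 1 or KO replicate 2 it was 1.04, 1.005 and 1.02, past the threshold. By FDR alone, 10 metal genes (45.5%, against 31.4% of all genes) were higher and *Slc48a1*, a heme transporter, was lower in M/M.

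Other classes held small differences. None of the 23 mitochondrial carriers was called in M/M, where 6 were higher and 6 lower by FDR (26.1% each, against 31.4% of all genes in each direction) and the class median was 0.00 on the log2 scale. *Slc25a4* was at 247 ± 13.1 CPM in WT and 230 ± 6.52 CPM in M/M (log2 FC -0.10 ± 0.05, FDR = 0.102). None of the 17 genes of the SLC35 family, most of which carry nucleotide sugars into the Golgi, was called either, with log2 FC between -0.66 and 0.25. The abundant phosphate carrier *Slc20a2*, altered in a familial brain calcification of people, was at 201, 203 and 181 CPM in WT, 119, 119 and 135 CPM in I/M and 114, 95.7 and 92.2 CPM in M/M. All mutant libraries lay below all WT libraries, at a log2 FC of -0.95 ± 0.09 (FDR = 5.27e-07) in M/M, just short of 2-fold. The call was reached without WT replicate 3 (-1.004) or without M/M replicate 1 (-1.05).

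The remaining rise was that of the scaffold gene *Slc9a3r2*, at 2.04 ± 0.207 CPM in WT, 2.11 ± 0.12 CPM in KO, 2.84 ± 0.196 CPM in I/M and 5.41 ± 0.202 CPM in M/M (log2 FC 1.40 ± 0.10, FDR = 5.07e-08). Without M/M replicate 1, the number of falls rose from 5 to 8, as *Slc20a2*, *Slc46a3* and *Slc9a8* joined.

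**Figure D3:**
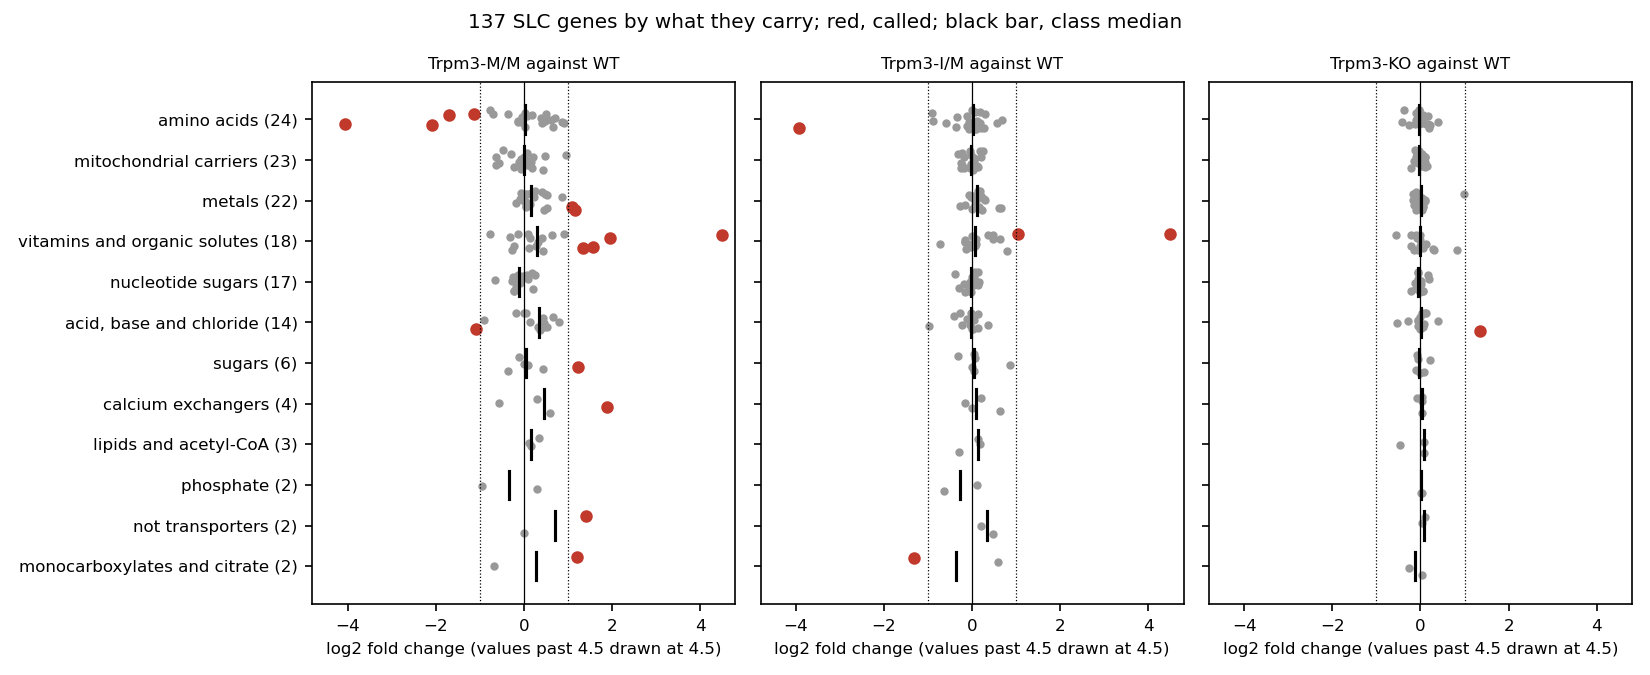
Log2 fold change against WT (x axis) of the SLC genes by cargo class (y axis, number of members in parentheses) in M/M, I/M and KO; red points are called, grey points are not, black bars are class medians, and dotted lines mark 2-fold. *Slc14a1* exceeds the axis and is drawn at 4.5 in M/M and I/M, and it is left out of KO, where both groups are at the floor. The 4 red points among amino acid genes in M/M are all to the left, and the 4 among vitamins and organic solutes to the right.

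In I/M, 2 members were higher (*Slc14a1* and *Slc6a8*), where 2.58% of all genes were, and 2 were lower (*Slc6a15* and *Slc16a1*), where 0.746% were. By FDR alone these numbers were 29 and 21, against 17.3% and 15.3% of all genes, and the median log2 FC of the members was 0.03. Without WT replicate 2 there were 4 lower members, as *Slc4a4* and *Slc6a11* (-1.04) passed the threshold, and without WT replicate 1 or I/M replicate 1 there was 1 higher member. Both *Slc14a1* and *Slc6a8* had become members only through their M/M libraries.

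In KO, 1 member was called higher, where 0.234% of all genes were, and none was called lower, where 0.334% were. DESeq2 also called 1 and 0. The called gene, *Slc26a11*, had become a member only through its KO libraries, so the count supports nothing about the members. At an unadjusted p below 0.05 stood 32 members in either direction (23.4%, against 18.1% of all genes), and by FDR 7 were higher and 4 lower, against 2.16% and 2.2% of all genes. *Slc26a11* (ENSMUSG00000039908, chr11:119355557-119381079, plus strand), a sulfate and chloride carrier, was at 2.60, 2.06 and 3.67 CPM in WT, 6.54, 8.68 and 6.16 CPM in KO, 2.10, 2.87 and 3.26 CPM in I/M and 2.40, 2.43 and 2.49 CPM in M/M. It was high in the KO libraries alone, at a log2 FC of 1.36 ± 0.20 (FDR = 0.00113) in KO against WT, and M/M was below KO by -1.55 ± 0.19 (FDR = 1.17e-05). *Slc22a17*, a receptor for the iron-carrying protein lipocalin 2, named after its values were seen, was at 44.3, 43.3 and 46.2 CPM in WT and 80.3, 75.8 and 80.2 CPM in KO, above all libraries of the other 3 genotypes. Its log2 FC in KO was 0.82 ± 0.04 (FDR = 6.81e-08), below 2-fold. *Slc7a8* was higher in KO by 0.40 ± 0.06 (FDR = 0.00117), from 189 ± 5.65 to 248 ± 14.1 CPM.

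Compared directly with I/M, M/M had 4 members higher, where 3.67% of all genes were, and 1 lower, where 1.02% were. The higher ones were *Slc14a1*, *Slc8a1*, *Slc6a6* and *Slc29a1*, a nucleoside transporter, and the lower one was *Slc6a11* (-1.17 ± 0.17, FDR = 9.58e-05). *Slc14a1* and *Slc29a1* had become members only through their M/M libraries, so the count of rises is partly fixed by the membership rule. *Slc29a1* was at 3.53 ± 0.337 CPM in WT, 2.41 ± 0.21 CPM in KO, 2.11 ± 0.206 CPM in I/M and 4.38 ± 0.265 CPM in M/M, so the mutants lay on opposite sides of WT, at log2 FC of -0.74 ± 0.11 (FDR = 0.000239) and 0.31 ± 0.11 (FDR = 0.0205). Their own difference was 1.05 ± 0.11 (FDR = 3.96e-06). It fell to 0.97 without I/M replicate 3, and the *Slc6a11* call was lost without M/M replicate 3 (-0.997). Without M/M replicate 1, *Slc46a3* (-1.14) was called as well.

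Against KO, M/M had 9 members higher, where 6.85% of all genes were, and 6 lower, where 2.94% were. Of the rises, *Slc14a1*, *Slc6a8*, *Slc40a1* and *Slc9a3r2* had become members only through their M/M libraries. Of the falls, *Slc26a11* had done so only through its KO libraries, so both counts are partly fixed by the membership rule. Of the genes called against KO, 3 were not called against WT and are named after their values were seen. *Slc39a14*, a zinc, iron and manganese importer, was at 8.47 ± 0.579 CPM in KO and 17.1 ± 1.03 CPM in M/M (log2 FC 1.01 ± 0.07, FDR = 4.2e-08). *Slc9a8*, a sodium/proton exchanger of the Golgi, was at 19.5 ± 0.389 and 9.67 ± 1.67 CPM (-1.02 ± 0.09, FDR = 5.46e-07), and *Slc46a3*, a lysosomal carrier, at 26.1 ± 1.17 and 12.5 ± 3.81 CPM (-1.06 ± 0.16, FDR = 5.83e-05). The 3 calls lay near the threshold and were lost without M/M replicate 2, at 0.96, -0.99 and -0.94. *Slc9a8* and *Slc46a3* were also lost without M/M replicate 3 (-0.91 and -0.95) and under library size alone (-0.56 and -0.61). *Slc39a14* was also lost without KO replicate 1 or 2 (0.99 and 0.97) and with a minimum of 1 CPM in 3 libraries (0.99).

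A list of 29 SLC genes known for transport in the lens held 26 members. It was chosen with earlier results of these data known, so its counts are given as a description. In M/M, 5 were called higher (*Slc14a1*, *Slc8a1*, *Slc6a6*, *Slc16a12* and *Slc16a3*) and 1 lower (*Slc4a4*), where 6.42% and 2.53% of all genes were, with a median log2 FC of 0.26 beside -0.00 over all genes. In I/M 1 was higher (*Slc14a1*) and 1 lower (*Slc16a1*), where 2.58% and 0.746% of all genes were. In KO none was called in either direction, where 0.234% and 0.334% of all genes were. By FDR, 2 were higher and 1 lower in KO, against 2.16% and 2.2% of all genes. *Slc14a1* had become a member only through its M/M libraries. The list's summed level ran from 1670 to 1791 CPM in WT and from 1754 to 1827 CPM in M/M.

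**Figure D4:**
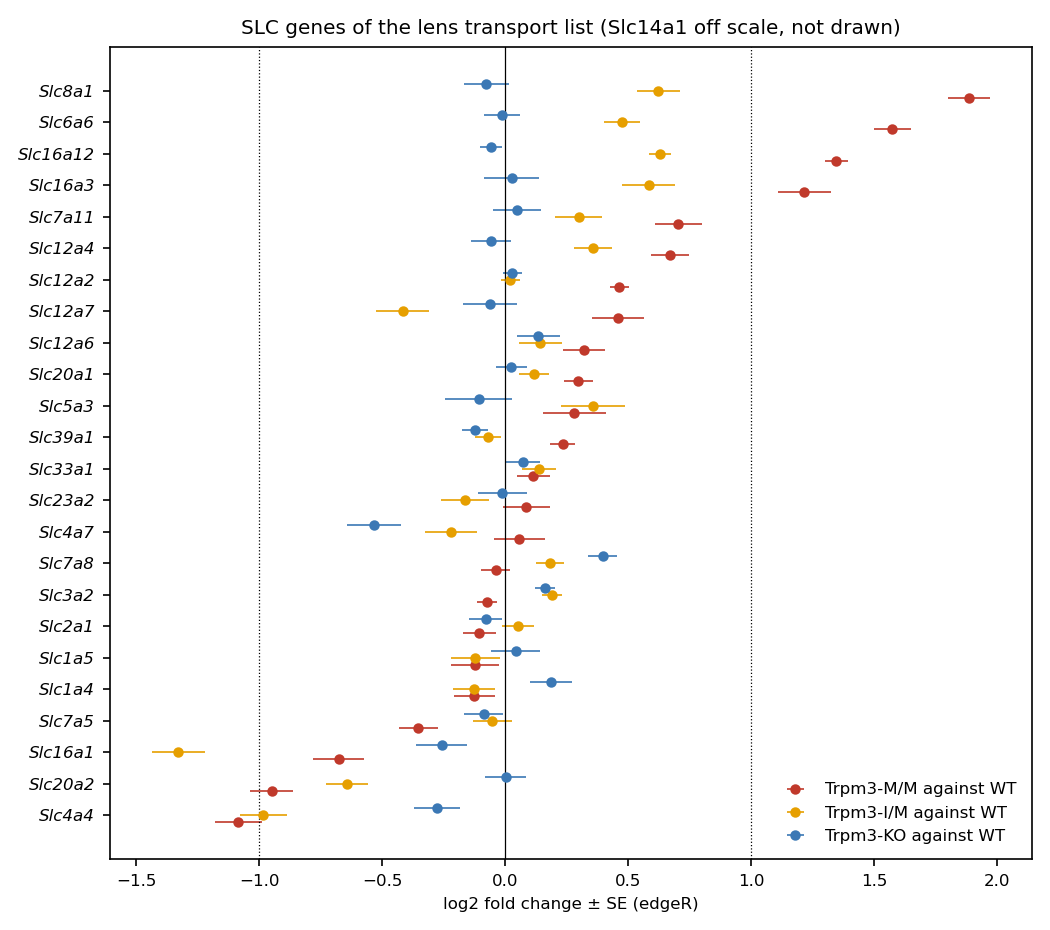
Log2 fold change against WT with its SE (x axis) of 24 of the 26 tested genes of the lens transport list, without *Slc14a1*, which is off the scale; dotted lines mark 2-fold. *Slc8a1*, *Slc6a6*, *Slc16a12* and *Slc16a3* lie above 1 in M/M, with I/M between it and WT, while *Slc16a1* is lower in I/M than in M/M.

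Transporters counted among the SLC families under other symbols moved in both directions too. Of 48 listed genes, 21 were tested, and in M/M 3 were called higher and 2 lower, where 6.42% and 2.53% of all genes were. *Slco5a1*, of the organic anion transporter family, was at 0.570 ± 0.0221 CPM in WT, 3.41 ± 0.143 CPM in I/M and 9.81 ± 0.517 CPM in M/M (log2 FC 4.10 ± 0.15, FDR = 7.41e-11). *Slco3a1*, of the same family, and *Sfxn3*, a mitochondrial serine carrier, rose by 1.37 and 1.14 on the log2 scale. All 3 rising genes were under the minimum of 5 CPM in WT and KO and were tested only through the mutant libraries. The count of rises is thus partly fixed by the minimum. *Spns2*, the exporter of sphingosine-1-phosphate, was at 75.4 ± 7.65 CPM in WT, 45.8 ± 5.02 CPM in I/M and 28.2 ± 3.77 CPM in M/M (-1.42 ± 0.10, FDR = 5.28e-08). *Mfsd2a*, which carries lysophospholipids with docosahexaenoic acid, fell from 14.2 ± 1.18 to 5.15 ± 0.827 CPM (-1.47 ± 0.11, FDR = 1.2e-07).

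Among 14 partners and regulators of SLC proteins, 11 were tested. With 2.58% of all genes called higher in I/M and 6.42% in M/M, 1 of the 11 was called higher in each mutant. It was *Txnip*, which promotes removal of glucose transporters from the cell surface, at 3.35 ± 0.469 CPM in WT, 3.70 ± 1.04 CPM in KO, 12.8 ± 3.87 CPM in I/M and 12.9 ± 4.52 CPM in M/M. The log2 FC was 1.93 ± 0.30 (FDR = 0.000271) in I/M and 1.95 ± 0.30 (FDR = 7.11e-05) in M/M. *Txnip* was under the minimum of 5 CPM in WT and KO and was tested only through the mutant libraries. The count of rises is thus partly fixed by the minimum. *Wnk2*, a kinase of the pathway that sets the activity of cation-chloride cotransporters, was at 44 ± 2.33 CPM in WT, 46.1 ± 2.79 CPM in I/M and 23 ± 2.57 CPM in M/M (log2 FC -0.94 ± 0.08 against WT, FDR = 3.01e-07), whereas *Stk39*, the kinase below it, rose from 80.6 ± 4.71 to 136 ± 8.51 CPM (0.75 ± 0.05, FDR = 6.11e-08).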

How the data were processed

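Lens RNA was selected by poly-A tail and made into libraries with a TruSeq RNA kit, per the labels. Whether the counting used strand is not given in the sources used here, so reads of overlapping or antisense genes cannot be told apart. The authors aligned and quantified the reads with DRAGEN against Ensembl release 101 (mm10) and deposited the resulting estimated counts, one column per library, without scaling. Among 55774 entries for 55487 identifiers, 168 identifiers were repeated with no difference in values, and one copy was kept. Of the counts, 88.4% were whole. The design had assumed whole counts, and the estimates were rounded. A second deposited table, with the authors' own comparisons (log2 fold changes and p-values), was not used.

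The 8984 genes that passed the minimum were fitted together with edgeR 4.0.16 (R 4.3.3), using TMM factors, a quasi-likelihood fit over all 12 libraries and genotype as the only factor, with Benjamini-Hochberg adjustment. CPM use the TMM factors, except in the membership rule. Log2 fold changes carry SE and levels SD (n = 3). Libraries held 56162182 to 82090262 counts, and 3 counts per library were taken as the floor for a gene at 0, for counting error only. Alternatives were library size only, TMM without crystallin genes, upper-quartile factors, DESeq2 1.42.0, a weaker filter or none, no fold change threshold, a fit of the compared genotypes alone, a replicate block and each library left out. Exon lengths and coordinates came from GENCODE M21 (GRCm38) and promoters from RefSeq (GRCm38.p6).

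The members and gene lists were chosen with earlier results of these data known. Genes named were members called against WT, the 10 highest per kilobase in WT, members of the lens transport, ATF4, tonicity and hypoxia lists, and those next to the minimum. Other genes were named after their values were seen. Age and strain come from the paper. Nothing in the sources says how litters were divided among pools, so p-values measure the spread between these pools. The values of 1 SLC gene are not reported here.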

Additional observations from a re-analysis of the deposited data

How the results depend on the processing

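No called value changed direction under the alternatives run. Under library size only, M/M had 26 members higher and 3 lower against WT, 11 and 0 against I/M and 31 higher against KO, and KO had 2 higher against WT. By its construction that scaling moved the median log2 FC of all genes, by 0.50, 0.31 and 0.46 for M/M against WT, I/M and KO, and by 0.20 and 0.05 for I/M and KO against WT. With no fold change threshold, the numbers higher and lower were 54 and 30 (M/M), 29 and 21 (I/M) and 7 and 4 (KO) against WT, 49 and 27 for M/M against I/M, and 55 and 36 for M/M against KO.

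With each library left out in turn, the numbers higher and lower ran from 10 to 11 and from 5 to 8 for M/M, from 1 to 2 and from 2 to 4 for I/M, and from 1 to 2 and from 0 to 0 for KO against WT. They ran from 3 to 4 and from 0 to 2 for M/M against I/M, and from 8 to 9 and from 5 to 7 for M/M against KO. TMM without crystallin genes, upper-quartile factors, DESeq2, the weaker filters and the fit of compared genotypes alone kept all calls against WT.

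With the replicate number as a block, no call changed, and the numbers were 10 and 5 (M/M), 2 and 2 (I/M) and 1 and 0 (KO) against WT. Deviations of same-numbered libraries correlated between -0.26 and 0.15, with 2 of 18 pairs above 0.1, so no pairing by number was seen. A litter, preparation or run shared in another way was not tested. Depth limits statements on *Slc14a1* in WT and KO, where at most 2 counts were seen per library.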

Other observations

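Some SLC genes under the minimum of 5 CPM in 3 libraries, and so outside the 137, also differed. In a fit without the filter on low counts, 62 of them had a mean of at least 1 CPM in some genotype, and in M/M against WT 16 of these were called higher and 5 lower. Among all 3626 genes of that fit that missed the minimum and had such a mean, 17.8% were called higher and 5.43% lower. The SLC genes named here were chosen after their values were seen. *Slc16a6*, of the monocarboxylate transporter family, was at 3.94 ± 0.493 CPM in WT, 5.33 ± 0.429 CPM in KO, 1.73 ± 0.454 CPM in I/M and 0.695 ± 0.0671 CPM in M/M (log2 FC -2.51). *Slc39a8*, a zinc and manganese importer, was at 0.0811 ± 0.0231, 0.0681 ± 0.0119, 0.597 ± 0.254 and 2.97 ± 0.453 CPM in the same order (5.16 in M/M). *Slc1a2*, a glutamate transporter, was at 0.592 ± 0.132 CPM in WT, 1.32 ± 0.0375 CPM in I/M and 2.73 ± 0.0954 CPM in M/M.

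*Slc30a10*, a manganese exporter, was higher than in WT (1.12 ± 0.411 CPM) in all 3 altered genotypes, at 2.66 ± 0.322 CPM in KO (log2 FC 1.23), 2.35 ± 0.094 CPM in I/M and 2.99 ± 0.683 CPM in M/M. *Slc9a3r1*, the scaffold gene related to *Slc9a3r2*, was called higher in KO, at 1.13 ± 0.159 CPM against 0.337 ± 0.125 CPM in WT (1.74). It was also called higher in M/M against WT, at 0.848 ± 0.129 CPM (1.32), and was at 0.376 ± 0.102 CPM in I/M.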
